A study of Mus musculus with 4 samples.

Results

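Interstitial stromal fibroblast-like cells of the mouse testis were described in the day 35 Znhit1 knockout library of a droplet single-cell RNA-seq series. The members were chosen by their counts of unique molecular identifiers (UMIs, each standing for 1 captured RNA molecule). A barcode was a member if Dcn, Col1a1, Col1a2, Lum and Mgp together held at least 0.5% of its UMIs, if Acta2, Myh11, Tagln and Myl9 together held less than 1%, and if Ddx4 and Dazl together had at most 3 UMIs. Among 8121 barcodes with at least 1000 UMIs, at least 500 genes and at most 10% mitochondrial UMIs, 244 were members, which is 3.0% (exact 95% binomial interval 2.64% to 3.40%). This is a share of captured barcodes and not of the tissue. Intervals throughout cover counting error only.

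The series held 4 testis libraries made with a 10x 3' v3.1 kit: control testis at postnatal day 16 and at day 35, and Znhit1 knockout testis at the same 2 ages. The stated question was what loss of ZNHIT1, a subunit of the complex that places the histone variant H2A.Z, does in germ cells. Only the day 35 knockout matrix supplied counts, and expression in the remaining 3 matrices is not analysed here. The Cre driver, the promoter, the strain and the number of animals are details that the sources used here do not give. With 1 library there is no replicate and no test, so every difference below is a value of that library. No value here says what the knockout did to these cells, because no control counts enter.

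Interstitial stromal cells lie between the seminiferous tubules, around vessels and beside the steroid-making Leydig cells. They secrete collagens and proteoglycans, and the fetal and adult interstitium holds PDGFRA-positive and TCF21-positive cells that are known as precursors of Leydig cells and peritubular myoid cells. Peritubular myoid cells are the flat contractile cells that wrap each tubule and also make matrix. Small leucine-rich proteoglycans such as decorin (Dcn) bind collagen fibrils and set their spacing.

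The library's 15306 deposited barcodes held 72459160 UMIs, and 7185 of them did not pass the filters. Members held 656736 UMIs, with a median of 2392 per barcode (1005 to 9218), a median of 1288.5 genes and a median mitochondrial share of 4.45%. The other 7877 barcodes had a median of 4809 UMIs, and 4428 of those had more than 3 Ddx4 and Dazl UMIs. Marker-share rules, not a deposited annotation, gave 557 myoid-like barcodes (median 3645 UMIs), 433 macrophage-like (median 3060), 344 Sertoli-like, 10 Leydig-like and 9 endothelial-like. The myoid rule was at least 1% of UMIs in the 4 contractile genes. The macrophage rule was 1% in C1qa, C1qb, C1qc, Cd74, Csf1r and Lyz2, the Sertoli rule 0.5% in Cst9, Cst12, Sox9, Amhr2 and Aard, and the endothelial rule 0.5% in Pecam1, Cdh5, Egfl7, Esam, Flt1 and Kdr. Because the Leydig rule of 2% of UMIs in Cyp17a1, Cyp11a1, Hsd3b1, Insl3 and Star left only 10 barcodes, a 0.5% limit with 681 barcodes was added after seeing the data. Levels are given as CPM, the UMIs of a gene per 1000000 UMIs summed over a class, and are compared for 1 gene at a time. Of the members' barcode sequences, 1 also occurred in the day 16 control library, 2 in the day 16 knockout library and 0 in the day 35 control library.

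Znhit1 itself was counted in members as 12 UMIs, or 18.3 CPM (95% Poisson interval 9.44 to 31.9). The other barcodes stood at 6.87 CPM, and the myoid-like barcodes at 11.8 CPM. The gene lies on chromosome 5, 136982164 to 136988021 (mm10, minus strand, protein coding). A 3' tag may fall outside the deleted stretch, which the sources used here do not state, so this level checks no genotype.

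The rule's own genes are a description of the choice. Their summed share ran from 0.501% to 4.63% of a member's UMIs, with a median of 1.15%. Dcn was counted in 241 of the 244 members, at a median of 6186 CPM per barcode. Mgp, which encodes matrix Gla protein, an inhibitor of calcification, was counted in 234. Col1a2 was counted in 218 and Col1a1 in 193, the chains of type I collagen. Lum, encoding lumican, was seen in only 28. Of the contractile genes kept low by the rule, Acta2 was counted in 49 members and Myl9 in 68. Thus the class was carried by Dcn, Mgp and type I collagen and hardly by Lum.

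The label was checked against marker lists of other cell types. The myoid-like, macrophage-like and endothelial-like barcodes were themselves chosen by genes of these lists, so their own high sums were set by that choice. Lymphocyte markers were at 0 for 6 of 6 genes, and 6 of 7 mesothelial markers were at 0, as were 5 of 6 rete testis or epididymal epithelial markers. Of 7 endothelial markers 6 were counted, with Kdr at 0, and they summed to 152 CPM in members, 32.5 CPM in myoid-like, 28.0 CPM in macrophage-like and 24.9 CPM in Sertoli-like barcodes, against 6325 CPM in the endothelial-like barcodes. Cdh5 gave 99.0 CPM of the members' sum. Pericyte markers, 4 of 6 of them counted, summed to 42.6 CPM against 226 CPM in myoid-like barcodes, and Kcnj8 and Higd1b were at 0. Macrophage markers, 7 of 8 of them counted, summed to 148 CPM against 22629 CPM in macrophage-like barcodes, with Cd163 at 0. Myoid markers summed to 598 CPM against 19477 CPM in myoid-like barcodes. That list includes the 4 contractile genes of the rule, so the rule largely set this difference. Schwann markers, 5 of 6 of them counted with Sox10 at 0, summed to 102 CPM, above the 69.9 CPM of Sertoli-like and 56.7 CPM of macrophage-like barcodes, and S100b gave 73.1 CPM of it. Thus each of these lists but the lymphocyte one was counted in part, and the endothelial and Schwann sums stood above those of the myoid-like, macrophage-like and Sertoli-like barcodes. The label was kept as a broad one, and the part of RNA from these other cell types in the values that follow was not tested.

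Leydig, Sertoli and germ cell markers were present in members at low levels. The 7 Leydig markers summed to 1530 CPM, but the median member had 623 CPM and 55 members had no such UMI. Summed in the same way, myoid-like barcodes had 606 CPM, macrophage-like barcodes 568 CPM and the 681 Leydig-gene barcodes 16485 CPM. These are class sums and compare with the 1530 CPM, not with the per-barcode median. Sertoli markers summed to 1405 CPM in members, 1145 CPM in myoid-like and 921 CPM in macrophage-like barcodes. Germ cell markers summed to 565 CPM, 462 CPM and 488 CPM in the same 3 classes. All 3 classes were limited to at most 3 UMIs of Ddx4 and Dazl, which are among the germ cell markers, so this likeness was partly set by the rules. Thus the Sertoli and germ cell sums of members were somewhat above those of the myoid-like and macrophage-like barcodes, while the Leydig sum was raised by a minority. At least 0.1% of UMIs came from the 5 Leydig rule genes in 24 members, at least 0.25% in 6 and at least 0.5% in 2. In addition, 5 members also met the Sertoli rule and 1 the endothelial rule.

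**Figure D1:**
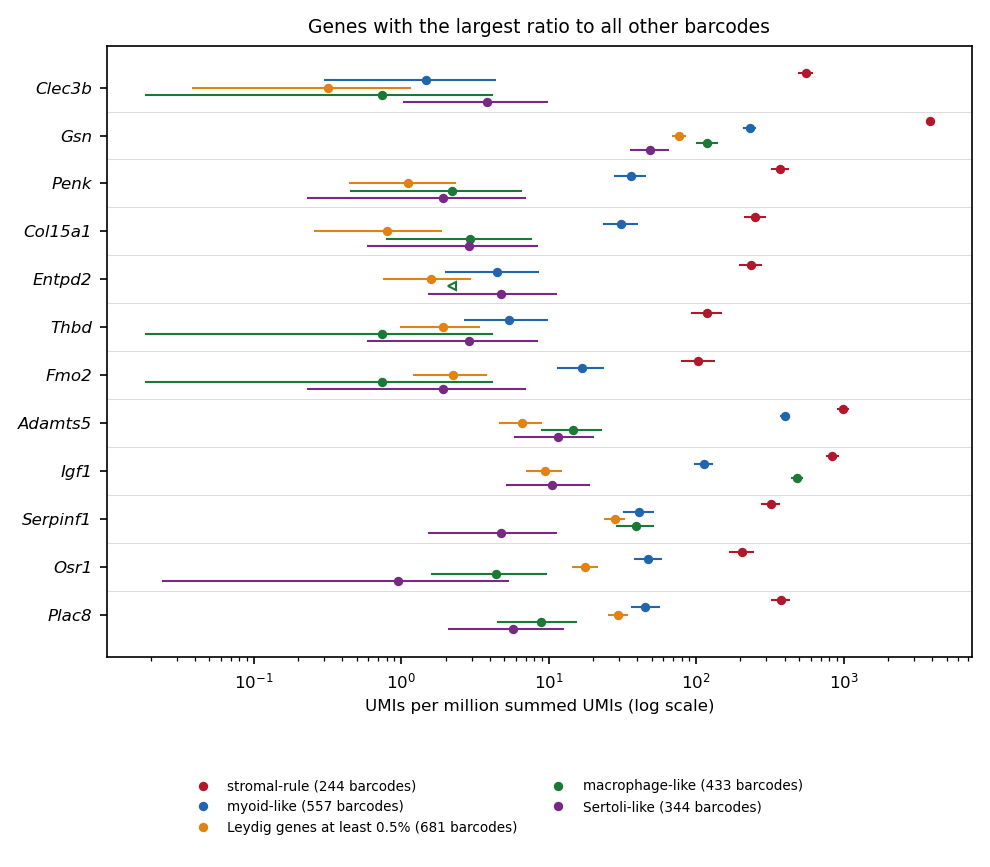
Levels of the 12 leading genes in CPM (x axis, log scale) for 5 classes of barcodes, as points with exact 95% Poisson intervals; an open triangle marks the upper limit of a gene with no UMI. Red points (244 members) lie to the right of every other class drawn for all 12 genes, with the narrowest gap for Igf1 against macrophage-like barcodes. Endothelial-like barcodes are not drawn.

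The genes that set members apart from the 7877 other barcodes were led by Clec3b, Gsn and Penk. Among 18614 genes with at least 20 UMIs over both sets, 2493 (13.4%) were higher in members by 2-fold or more and 4217 (22.7%) lower by as much. Where the bound of the 95% interval had to pass 2-fold, 950 were higher and 1156 lower. A gene with no UMI in members was never counted as higher. All of these ratios come from the barcodes that were chosen, so they describe the class and test nothing.

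Clec3b, which encodes tetranectin, a plasminogen-binding protein of connective tissue, was at 554 CPM (499 to 614) in members. It was at 1.34 CPM in the other barcodes, a ratio of 413 (318 to 543). Myoid-like barcodes held only 3 Clec3b UMIs, and the ratio to them was 375 (127 to 1825). The gene lies on chromosome 9, 123150946 to 123157432 (mm10, plus strand). Its UMIs were not spread over all members. After each barcode was thinned to 1000 UMIs, 72 of 244 members (29.5%, exact interval 23.9 to 35.7%) had a Clec3b UMI, against 1 of 557 myoid-like and 0 of 433 macrophage-like barcodes. Without thinning the numbers were 101, 3 and 1, at median depths of 2392, 3645 and 3060 UMIs.

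Gsn, encoding the actin-severing protein gelsolin, was at 3868 CPM in members and was 90.9 times (85.8 to 96.3) its level in the other barcodes. It was found in 220 of 244 members, and in 199 after thinning, so it marked nearly the whole class. Macrophage-like barcodes had Gsn in 55 of 433 after thinning, and the ratio to myoid-like barcodes was 16.8. The gene lies on chromosome 2, 35256380 to 35307892 (mm10, plus strand). Penk, the precursor of the enkephalin opioid peptides, was at 372 CPM, 71.8 times the other barcodes and 10.3 times the myoid-like barcodes. Penk UMIs occurred in 124 members, or 68 after thinning, against 1 thinned macrophage-like barcode. It lies on chromosome 4, 4133531 to 4138819 (mm10, minus strand).

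The remaining leaders were matrix, nucleotide, clotting and growth factor genes. Col15a1, a collagen of the basement membrane zone, was at 249.7 CPM with a ratio of 74.0 to the other barcodes. Entpd2, an enzyme that breaks down extracellular ATP, was at 234 CPM with a ratio of 68.6. Thbd, the thrombin-binding receptor thrombomodulin, was at 119 CPM with a ratio of 69.9. These 3 genes were each under 10 CPM in the macrophage-like, Sertoli-like and Leydig-gene barcodes, with endothelial-like barcodes not compared. Their ratios to myoid-like barcodes were 8.04 for Col15a1, 52.8 for Entpd2 and 21.9 for Thbd. Fmo2, a flavin-containing monooxygenase, was at 104 CPM with a ratio of 57.0. Adamts5, a protease that cuts aggrecan and versican, was at 994 CPM with a ratio of 36.7, but of only 2.48 to myoid-like barcodes. Igf1, a growth factor for many cell types, was at 837 CPM with a ratio of 32.2. Igf1 was the least restricted of the 12, since macrophage-like barcodes stood at 485 CPM. Serpinf1 (the secreted serpin PEDF) had a ratio of 30.5, Osr1 (a transcription factor of mesenchymal progenitors) 28.0, and Plac8 (a small cysteine-rich protein) 25.5.

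Since 4428 of the 7877 other barcodes had more than 3 Ddx4 and Dazl UMIs, the same genes were set against the 3449 other barcodes with at most 3 Ddx4 and Dazl UMIs. Among 14977 genes tested in that set, 1051 (7.02%) were higher by that rule and 1883 (12.6%) lower. The ratio was then 297 for Clec3b, 37.0 for Gsn, 52.5 for Penk and 11.7 for Igf1. These ratios were smaller than those to all other barcodes and still far above 2.

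**Figure D2:**
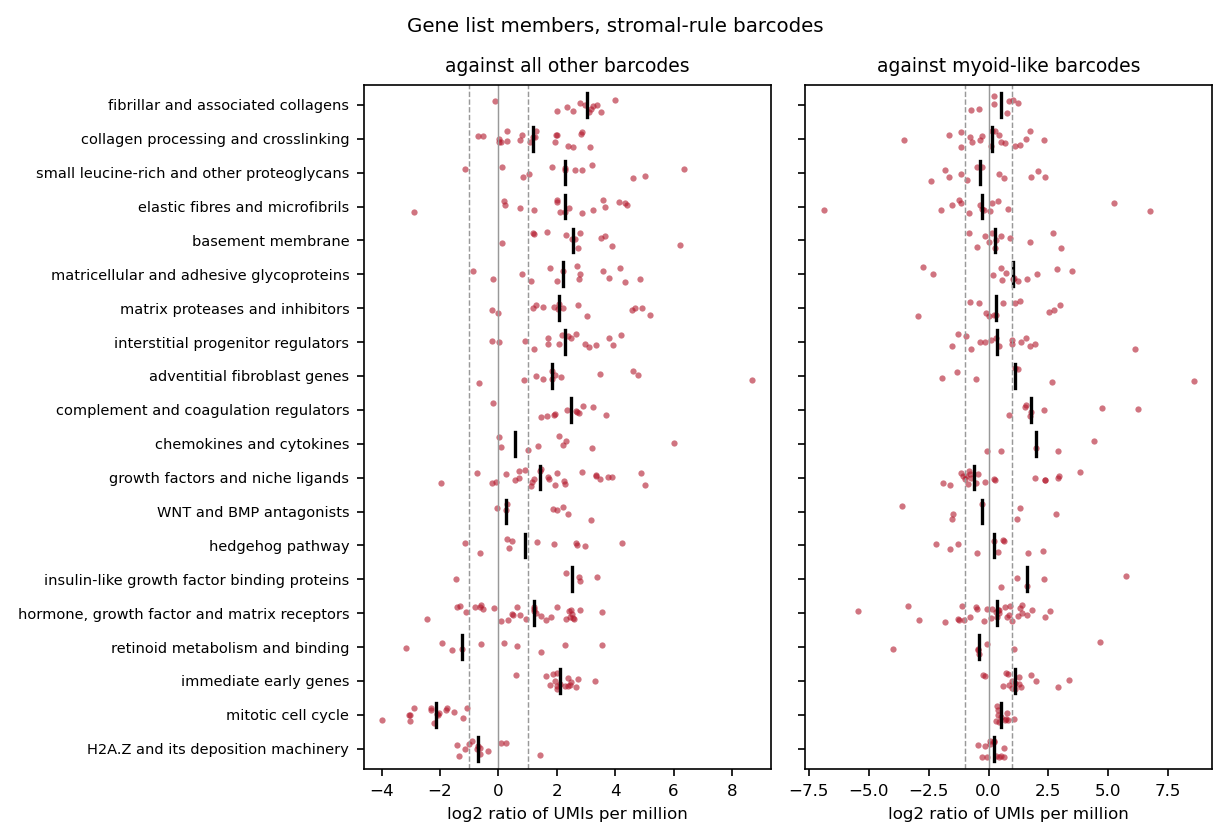
Each point is 1 gene of a gene list (y axis) at its log2 ratio of CPM in members to all other barcodes (left) or to myoid-like barcodes (right); black bars mark list medians, dashed lines 2-fold. Genes with no UMI in members or with under 20 UMIs over both sets are not drawn. Matrix and complement lists lie right of 0 on the left panel, and spread around 0 on the right for collagens, proteoglycans and elastic fibre genes.

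Matrix genes as groups were higher in members than in all other barcodes, where the median log2 ratio of all tested genes was -0.71. Of the fibrillar and associated collagens, 11 of 12 measured genes were at least 2-fold higher and 0 lower, with a list median of 3.04. Against the 3449 barcodes of low germ cell gene counts, it was 10 of 11 with a median of 1.93. Col3a1, the type III collagen chain, was at 1122 CPM (1043 to 1206) with a ratio of 11.5. Col6a1, a chain of the microfibrillar collagen VI, was at 305 CPM with a ratio of 8.65. Collagen processing genes were higher for 12 of 21 and lower for 0, with a median of 1.18. Among these, Serpinh1, the collagen chaperone HSP47, was at 449 CPM with a ratio of 8.73. Pcolce, an enhancer of procollagen cleavage, had a ratio of 2.26, but its ratio was 0.832 against the barcodes of low germ cell gene counts, where Leydig-gene barcodes stood at 387 CPM. Of collagen processing genes, 7 of 19 were higher and 1 lower against barcodes of low germ cell gene counts, with a median of 0.56.

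Proteoglycan genes other than the rule's Dcn and Lum were higher for 10 of 13, with a median of 2.27, and lower for 1, Aspn. Ecm1, a secreted matrix protein, was at 445 CPM with a ratio of 4.84. Ogn (osteoglycin) was at 384 CPM and Bgn (biglycan) at 376 CPM, with ratios of 7.34 and 9.26. Podn, a leucine-rich repeat proteoglycan, had the largest ratio, 81.9 (38.9 to 173), on only 17 UMIs in members. Prelp, which links basement membrane to collagen, had a ratio of 32.3. Asporin (Aspn) was counted 3 times in members, a ratio of 0.453 with an interval of 0.0931 to 1.33 that includes 1. Set against barcodes of low germ cell gene counts, 6 of 13 proteoglycan genes were higher and 1 lower, with a median of 0.83.

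Elastic fibre and microfibril genes were higher for 13 of 17 with a median of 2.29, and lower for 1, Ltbp2, whose ratio turned to 1.85 with a stromal limit of 0.25%. Ltbp4, which anchors latent TGF-beta and is needed for elastic fibre assembly, was at 626 CPM with a ratio of 17.5. Its ratio to myoid-like barcodes was 1.32. Mfap5, a microfibril protein, was at 105 CPM with a ratio of 21.2. Efemp1 (fibulin-3) was at 241 CPM with a ratio of 20.1. Against barcodes of low germ cell gene counts the count was 9 of 17, with a median of 1.01.

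Basement membrane genes were higher for 12 of 14 with a median of 2.57 (9 of 14 and 1.29 against barcodes of low germ cell gene counts). Lama2, the laminin chain of muscle and mesenchymal basement membranes, was at 702 CPM with a ratio of 14.9, and of 1.24 to myoid-like barcodes. Lamb1, a laminin beta chain, had a ratio of 11.5, and Nid1, which bridges laminin and collagen IV, 12.6. Lama5 had no UMI in members. Matricellular and adhesive genes were higher for 12 of 17 with a median of 2.20 (10 of 16 and 1.30 against barcodes of low germ cell gene counts). Sparc, a collagen-binding glycoprotein, was at 2946 CPM with a ratio of 4.06, and Smoc2, a related calcium-binding protein, at 266 CPM with a ratio of 20.4. Postn and Tnc, which encode periostin and tenascin-C and are known from wound and tumour stroma, had no UMI in 244 members. With 3 UMIs allowed as an upper bound for a count of 0, the list median against all other barcodes would be 2.68.

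Genes for matrix proteases and their inhibitors were higher for 13 of 16 and lower for 0, with a median of 2.06. Timp2, an inhibitor of matrix metalloproteinases, was at 1110.0 CPM with a ratio of 2.9. Htra3, a secreted serine protease, was at 324 CPM with a ratio of 25.7. Timp3, another inhibitor, stood at 86.8 CPM with a ratio of 0.983, so it did not set members apart from all other barcodes. Against barcodes of low germ cell gene counts the log2 ratio was 0.095 for Timp2 and -1.42 for Timp3. Timp2 thus did not set members apart from those. Against barcodes of low germ cell gene counts, 6 of 15 protease genes were higher and 2 lower, with a median of 0.67.

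**Figure D3:**
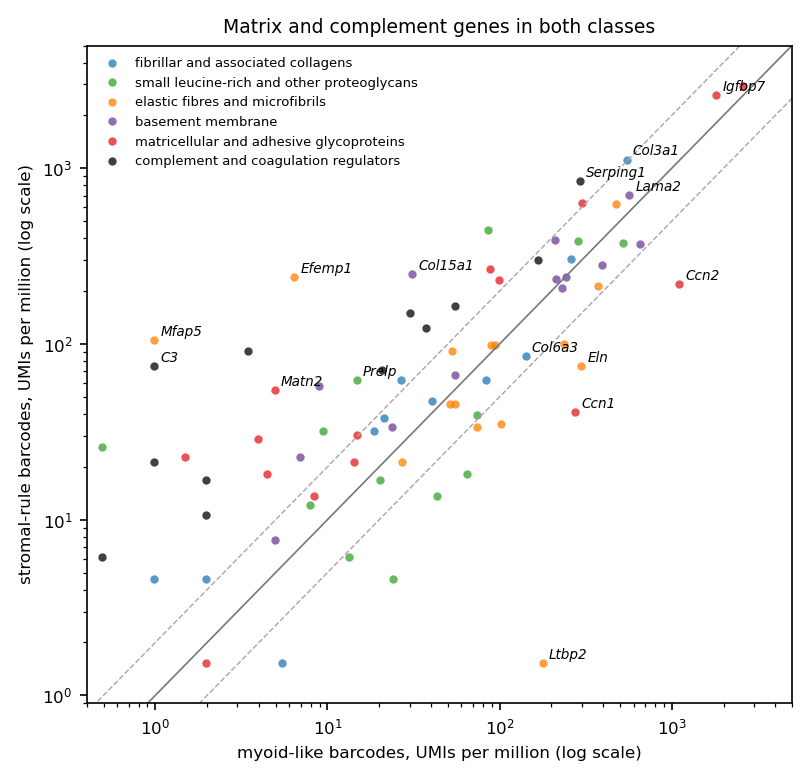
Matrix and complement genes, 1 point per gene, at the CPM in myoid-like barcodes (x axis, log scale) and in the 244 members (y axis, log scale); the solid line marks equal levels and dashed lines 2-fold. Genes with no UMI in 1 of the classes are not drawn. C3, Mfap5 and Efemp1 lie far above the line, and Ccn1, Ccn2, Eln and Ltbp2 below it.

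Members were next set against the myoid-like barcodes, which also held matrix genes. Of 10154 genes tested, 841 (8.28%) were higher in members by 2-fold or more and 1017 (10.0%) lower, and the median log2 ratio was 0.09. Fibrillar collagens were higher for 2 of 8 and lower for 0, with a median of 0.50. Col3a1 had a ratio of 2.05 (1.87 to 2.25), Col6a1 1.17 (0.991 to 1.38) and Col6a3 0.603 (0.444 to 0.805). Basement membrane genes were higher for 3 of 13 and lower for 1, with Col4a1, a chain of collagen IV, at 0.562 and Col15a1 at 8.04. Collagen processing genes were higher for 5 of 19 and lower for 4. Loxl1, a crosslinker of elastin and collagen, was at 0.454.

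Elastic fibre genes split between the 2 classes. Of 15 measured, 2 were at least 2-fold higher in members and 5 lower, with a median of -0.26. Mfap5 and Efemp1 were the higher genes, at ratios of 107 (28.4 to 897, with 2 UMIs in myoid-like barcodes) and 37.5 (21.3 to 72.0). Eln, which encodes elastin itself, was at 74.6 CPM in members and 297 CPM in myoid-like barcodes, 3.98 times lower (2.97 to 5.44). Ltbp2 was counted 1 time in members and stood at 178 CPM in myoid-like barcodes, a ratio of 0.00853 (0.000215 to 0.0478), and up to 0.112 over the alternatives. Fbn1, the fibrillin of microfibrils, had a ratio of 1.05 (0.777 to 1.39), so its levels were not told apart.

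Proteoglycans were higher than in myoid-like barcodes for 3 of 12 and lower for 4, with a median of -0.37. Ecm1 was at 5.18 and Prelp at 4.22, while Bgn was at 0.721 and Aspn at 0.189. Matricellular genes were higher for 7 of 13 and lower for 2, with a median of 1.04. Smoc2 was at 3.04. Ccn2, a matricellular protein induced by tension and TGF-beta, stood at 219 CPM in members and 1103 CPM in myoid-like barcodes, 5.03 times lower. Timp3 was 7.79 times lower (5.98 to 10.3), whereas Timp2 was 2.17 times higher. Thus the inhibitors Timp2 and Timp3 differed between the classes in opposite directions.

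The contractile genes outside the rule were far lower than in myoid-like barcodes, a gap that the rule's limit on 4 contractile genes partly set. Cnn1 (calponin) had 1 UMI in members and 456 CPM in myoid-like barcodes, a ratio of 0.00334 (8.44e-05 to 0.0186). Tpm2, a tropomyosin, was 32.3 times lower, Tnnt2, a troponin, 34.9 times lower, and Prkg1, a kinase that relaxes smooth muscle, 43.8 times lower. The sizes moved with the limits of the rule, as the ratio ran from 0.00225 to 0.0541 for Cnn1, 0.0131 to 0.076 for Tpm2, 0.0155 to 0.107 for Tnnt2 and 0.018 to 0.0843 for Prkg1 over the alternatives, all below 1. Des, the muscle intermediate filament desmin, was at 73.1 CPM, 4.15 times lower. In the other direction, Igfbp4, a binding protein for insulin-like growth factors, was 52.7 times higher (30.2 to 101, and up to 206 over the alternatives), and Fcgr2b, an inhibitory receptor for antibodies, 87.5 times higher (28.9 to 433).

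**Figure D4:**
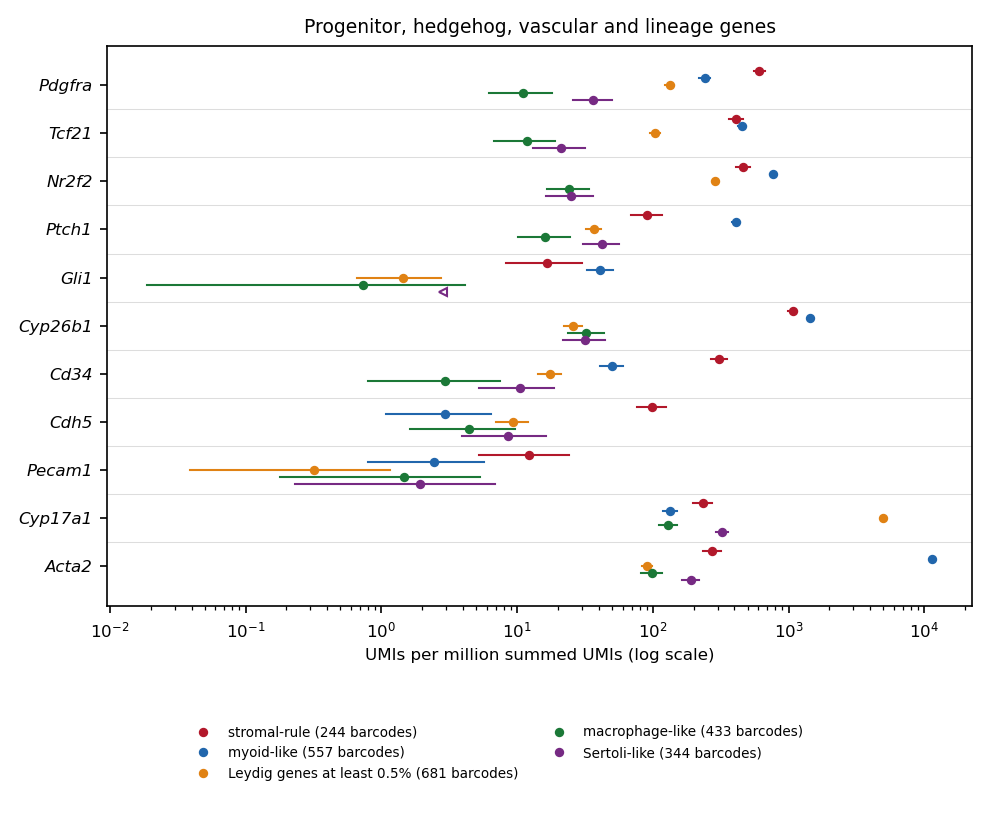
Levels in CPM (x axis, log scale) of progenitor, hedgehog, vascular and lineage genes in members and 4 other classes, with exact 95% Poisson intervals; open triangles mark upper limits for genes with no UMI. Tcf21 and Cyp26b1 lie close together in members and myoid-like barcodes, whereas Cd34 and Cdh5 are, of these 5 classes, highest in members and Ptch1, Gli1 and Acta2 in myoid-like barcodes.

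Regulators of interstitial progenitors were higher than in all other barcodes for 14 of 18, with a median of 2.28 (9 of 17 and 1.04 against barcodes of low germ cell gene counts). Pdgfra, the receptor that marks interstitial progenitors, was at 611 CPM (552 to 673), with ratios of 13.9 to other barcodes and 2.53 (2.21 to 2.89) to myoid-like barcodes. Tcf21, a transcription factor of the same cells, was at 411 CPM in members and 455 CPM in myoid-like barcodes, a ratio of 0.904 (0.787 to 1.04). Nr2f2 (COUP-TFII) was at 463 CPM and 0.606 of the myoid-like level. Ly6a (SCA-1) was at 68.5 CPM, with 2 UMIs in all myoid-like barcodes. Thus Tcf21 did not separate the classes beyond counting error, Nr2f2 was higher in myoid-like barcodes, and Pdgfra and Ly6a were higher in members.

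Genes of adventitial fibroblasts, the CD34-positive cells around vessels, were higher for 10 of 15 against all other barcodes, with a median of 1.83 (5 of 10 and 0.99 against barcodes of low germ cell gene counts). Cd34 was at 309 CPM and 6.21 times (4.87 to 7.96) the myoid-like level. Cd248 (endosialin) was at 62.4 CPM and Cd55, a complement-restraining receptor, at 21.3 CPM. Cd34 UMIs occurred in 113 members and Clec3b UMIs in 101, with both in 59. Dpp4, Thy1 and Sema3d had no UMI in members, and Pi16 was at 7.61 CPM. The list was thus present in part, led by Clec3b and Cd34 and without Dpp4. It was not particular to members, since the 6 adventitial markers summed to 961 CPM in members and 2231 CPM in the 9 endothelial-like barcodes, where Cd34 stood at 553 CPM.

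Hedgehog signalling reaches the interstitium from Sertoli cells, which secrete the ligand DHH, and Ptch1 and Gli1 are its receptor and its target. Of the 12 hedgehog genes, 6 were at least 2-fold higher than in all other barcodes and 1, Gli3, lower. Gli3 turned to a ratio of 2.12 against barcodes of low germ cell gene counts. Ptch1 was at 91.4 CPM in members and 413 CPM in myoid-like barcodes, 4.52 times lower (3.47 to 5.97), and Gli1 at 16.8 CPM was 2.44 times lower (1.3 to 5.08). Hhip, a target that binds the ligand, had no UMI in members. Gas1, a co-receptor, went the other way at 129 CPM and 3.16 times (2.31 to 4.33) the myoid-like level.

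Complement genes, whose products tag and lyse microbes or restrain that attack, were mostly higher in members than in all other barcodes. Against all other barcodes 11 of 12 complement and coagulation regulators were at least 2-fold higher and 0 lower, with a median of 2.49. Against myoid-like barcodes it was 7 of 8 and 0, with a median of 1.75, and against barcodes of low germ cell gene counts 7 of 12 and 1. Against the 681 Leydig-gene barcodes only 4 of 12 were higher, 1 was lower and 7 were within 2-fold, with a median of 0.66. Serping1, the C1 inhibitor, was at 844 CPM (775 to 917), 2.88 times (2.56 to 3.23) the myoid-like level. C1s1, a protease of the classical pathway, was at 301 CPM and 1.8 times that level. C3, the central component, was at 74.6 CPM with 2 UMIs in myoid-like barcodes, a ratio of 75.7 (19.9 to 642). Leydig-gene barcodes had 84.0 CPM of C3, so that gene did not belong to members alone.

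Chemokines divided by gene. Against all other barcodes 7 of 14 were higher and 2 lower, and against barcodes of low germ cell gene counts 4 were higher and 5 lower. Cxcl12, which holds CXCR4-positive cells in their niche, was at 326 CPM, 21.3 times (14.6 to 32.2) the myoid-like level and 2.02 times the Leydig-gene level. Cxcl14 was at 44.2 CPM with a ratio of 63.9 (37.7 to 108) to all other barcodes. Ccl2 and Ccl7, which attract monocytes, had no UMI in members and stood at 809.6 CPM and 312 CPM in macrophage-like barcodes.

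Growth factors and niche ligands were higher than in all other barcodes for 19 of 31, with a median of 1.41, and lower for 1, Pdgfa. Kitl, the ligand for the KIT receptor of spermatogonia and Leydig cells, was at 259 CPM, 5.15 times (4.0 to 6.64) the myoid-like level, and at 282 CPM in Sertoli-like barcodes. Inhba, the activin A subunit, was at 45.7 CPM with a ratio of 29.7, and Fgf7, a ligand for epithelial cells, at 22.8 CPM with a ratio of 14.6. Pdgfa, a ligand of PDGFRA, was at 9.14 CPM, 3.93 times lower (1.8 to 10.7) than in other barcodes, so members stood above the other barcodes for the receptor and below them for this ligand. Gas6, a ligand of TAM receptors, was at 221 CPM and 0.205 of the Leydig-gene level. Gdnf had no UMI in members. Against myoid-like barcodes 6 of 22 growth factors were higher and 5 lower, with a median of -0.62. Set against barcodes of low germ cell gene counts, 10 of 28 growth factors were higher and 4 lower, with a median of 0.36.

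WNT and BMP antagonists were sparse, with 12 of 17 measured and 4 of those at 0 in members. Higher than in all other barcodes were 5, with a list median of 0.27. With 3 UMIs allowed as an upper bound for each count of 0, the median was 2.01. Fstl1, a secreted follistatin-like protein, was at 116 CPM, 2.89 times lower than in myoid-like barcodes. Fst, the activin-binding follistatin, was at 24.4 CPM and 7.06 times (2.75 to 20.3) higher. Bambi, a BMP pseudoreceptor, was 2.45 times higher.

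Binding proteins for insulin-like growth factors, which hold ligands such as IGF1, were higher in members for most of the family. Of 6, 4 were higher than in all other barcodes and 1, Igfbp2, lower, and against myoid-like barcodes 4 of 5 were higher and 0 lower. Igfbp7 was at 2622 CPM and Igfbp6 at 2133 CPM, with ratios of 6.94 and 10.5 to other barcodes. Igfbp4 was at 338 CPM with a ratio of 6.82. Igfbp2 was at 70.0 CPM against 609 CPM in Leydig-gene barcodes. Igfbp5 had no UMI in members.

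Receptors for hormones, growth factors and matrix were higher for 17 of 33 against all other barcodes and lower for 4, and for 9 and 7 against barcodes of low germ cell gene counts. Against myoid-like barcodes 8 were higher and 8 lower. Egfr, the epidermal growth factor receptor, was at 190.3 CPM and 5.94 times (4.37 to 8.14) the myoid-like level, and Il6st, the shared receptor gp130, at 209 CPM and 3.04 times. Esr1, the oestrogen receptor alpha, was at 108 CPM and 3.54 times (2.48 to 5.05) higher than in myoid-like barcodes. It was 1.96 times lower (1.54 to 2.53) than in Leydig-gene barcodes, and its ratio of 2.32 to all other barcodes became 0.865 against those of low germ cell gene counts. Itgb1, the beta 1 integrin, was 2.34 times lower than in myoid-like barcodes.

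Retinoic acid drives entry into meiosis, and CYP26B1 degrades it. Of 13 retinoid genes, 3 were higher than in all other barcodes and 4 lower. These shares were not far from the 13.4% and 22.7% of all tested genes. The list median was -1.26. With 3 UMIs allowed as an upper bound for the 3 genes at 0, the median was 0.63. Cyp26b1 was at 1070.4 CPM (993 to 1153) in members and 1439 CPM in myoid-like barcodes, and at 32.4 CPM or below in macrophage-like, Sertoli-like and Leydig-gene barcodes. Its UMIs occurred in 141 members, or 98 of 244 (40.2%) after thinning, against 392 of 557 (70.4%) myoid-like and 9 of 433 macrophage-like barcodes. Of the retinaldehyde dehydrogenases, Aldh1a1 was at 911 CPM and 3773 CPM in Leydig-gene barcodes, and Aldh1a3 at 62.4 CPM was 25.3 times (10.0 to 82.1) the myoid-like level. Aldh1a2 was counted 5 times. Rbp4, the serum carrier of retinol, at 30.5 CPM was 15.7 times lower (10.1 to 25.8) than in myoid-like barcodes. The enzyme that degrades retinoic acid was thus a feature that members shared with myoid-like barcodes, and Rbp4 was not.

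Immediate early genes, which are switched on within minutes of a stimulus, were higher than in all other barcodes for 16 of 17, with a median of 2.10. Against barcodes of low germ cell gene counts it was 5 of 17 and 0.80, and against myoid-like barcodes 9 of 17 and 1.10. Fos was at 1725 CPM in members, 807 CPM in myoid-like and 1501 CPM in macrophage-like barcodes. Klf4 was 7.45 times (6.05 to 9.23) and Socs3, an inhibitor of cytokine signalling, 10.1 times (7.24 to 14.4) the myoid-like level.

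Mitotic genes were at least 2-fold lower than in all other barcodes for 16 of 16, beside 22.7% of all tested genes, with a median of -2.15. Set against barcodes of low germ cell gene counts it was 1 of 16, beside 12.6% of all tested genes. The list median was then -0.19, and the all-gene median was also -0.19. Top2a was at 53.3 CPM in members, 40.9 CPM in myoid-like and 45.7 CPM in macrophage-like barcodes, and Plk1 was counted 1 time. Leaving out barcodes with more than 3 Ddx4 and Dazl UMIs thus ended the 2-fold call for 15 of the 16 genes. Single genes then ran from a log2 ratio of -1.79 to 0.215, with Top2a at -0.75 and Ube2c at -0.81. The list as a whole did not stand below all tested genes.

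H2A.Z and its deposition genes were examined because ZNHIT1 acts on H2A.Z. Against all other barcodes 1 of 13, Znhit1, was higher at a ratio of 2.66 (1.36 to 4.71) and 3 were lower. Of all tested genes 13.4% were higher and 22.7% lower. The list median was -0.70 beside the all-gene median of -0.71. Against barcodes of low germ cell gene counts 0 were higher and 0 lower, beside 7.02% and 12.6% of all tested genes. Znhit1 was at 1.2 (0.613 to 2.14) in that comparison. Against myoid-like barcodes 0 of 13 were higher and 0 lower, beside 8.28% and 10.0% of all tested genes. The H2A.Z gene H2afz had 624 CPM in members and 506 CPM in myoid-like barcodes. Yeats4, a subunit that reads acetylated histones, was at 47.2 CPM.

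Leydig cells descend from interstitial progenitors, so members were also set against them. Against the 10 barcodes of the 2% rule, 1343 of 5912 genes tested (22.7%) were higher by 2-fold or more and 692 (11.7%) lower. Against the 681 barcodes of the 0.5% limit, 1859 of 11683 (15.9%) were higher and 1309 (11.2%) lower. With that limit fibrillar collagens were higher for 8 of 8, elastic fibre genes for 12 of 14 and basement membrane genes for 10 of 12. Col3a1 was at 4.55 (4.16 to 4.97), Pdgfra at 4.59 (4.07 to 5.18) and Tcf21 at 3.95 (3.42 to 4.56) times the Leydig-gene level, and Cyp26b1 at 41.3. On the Leydig side stood Aldh1a1, 4.14 times lower in members, Gas6, 4.88 times lower, and Igfbp2, 8.69 times lower. The collagen, elastic fibre and laminin genes therefore set members apart from Leydig-gene barcodes more widely than from myoid-like barcodes.

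Members varied among themselves. Clustering without the list genes, the marker genes, the rule genes and the mitochondrial genes gave 3 clusters at resolution 0.5 and 7 at resolution 1. The clusters stay unnamed. Cluster 1 held 136 barcodes and was led by Dlk1, Fabp4, Penk, Gpx3 and Apoe. Cluster 2 held 50 and was led by Hsd3b6, Kcnd2, Lipg, Lhcgr and Grm7, of which Hsd3b6 and Lhcgr are a steroid enzyme and the luteinising hormone receptor of Leydig cells. Cluster 3 held 58 and was led by Cldn5, Tm4sf1, Arl15, Atrnl1 and Ccn2. The leaders of cluster 3 rested on few barcodes, since the 3 members with a Cldn5 UMI in that cluster held nearly all of its Cldn5 counts. Tm4sf1 was likewise seen in 4 members of cluster 3.

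**Figure D5:**
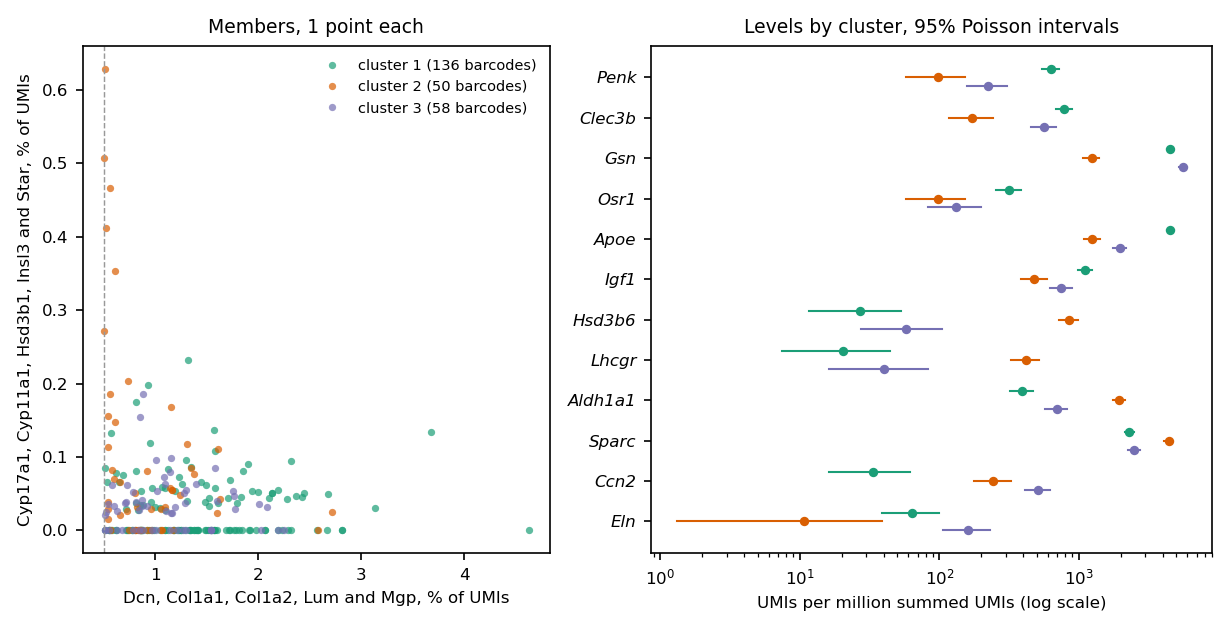
Left, the 244 members by the share of UMIs in the 5 stromal genes (x axis, %) and in the 5 Leydig rule genes (y axis, %), coloured by cluster, with the 0.5% limit dashed. Right, levels of 12 genes in CPM (log scale) by cluster with exact 95% Poisson intervals; the barcodes highest in Leydig genes belong to cluster 2 and lie near the 0.5% limit.

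The list genes, which the clustering did not use, also differed among the clusters. Clec3b was at 789 CPM in cluster 1, 561 CPM in cluster 3 and 173 CPM in cluster 2. Igf1 was at 1112 CPM, 749.8 CPM and 480.2 CPM in the same order. Cluster 3 was highest for Lama2 at 1076 CPM, Cd34 at 492 CPM and Eln at 160.3 CPM. Ccn2 was at 509 CPM in cluster 3, 243 CPM in cluster 2 and 33.7 CPM in cluster 1. Cluster 2 was highest for Aldh1a1 at 1948 CPM, Sparc at 4408 CPM and Smoc2 at 453 CPM, and Igfbp2 was at 178 CPM there against 27.0 CPM in cluster 1. Pdgfra was at 661 CPM, 432 CPM and 715 CPM in clusters 1, 2 and 3. Cyp26b1 was at 677 CPM in cluster 1, 1327 CPM in cluster 2 and 1465 CPM in cluster 3. Cluster 1 was thus highest for Clec3b and Igf1 and lowest for Cyp26b1 and Ccn2.

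Myoid, endothelial and macrophage markers were highest in cluster 3. Myoid markers summed to 944 CPM there, against 479 CPM in cluster 1 and 464 CPM in cluster 2. Endothelial markers summed to 315 CPM against 84.3 CPM and 108 CPM, and macrophage markers to 286 CPM against 115 CPM and 70.1 CPM. In the 4 contractile rule genes, single members of cluster 3 reached 0.998%, 0.891% and 0.662% of their UMIs. Single members also reached 0.894% in cluster 1 and 0.848% in cluster 2, so the myoid sums rested in part on few barcodes. The part of myoid, endothelial and macrophage RNA in the Cd34, Eln, Lama2 and Ccn2 levels of cluster 3 was not tested. Sertoli and germ cell markers were highest in cluster 1, at 1736 CPM and 667 CPM. Cluster 2 had 1004 CPM and 421 CPM of them, and cluster 3 had 1271 CPM and 544 CPM. At resolution 1 a cluster of 61 barcodes had 2227 CPM of Sertoli markers. The part of Sertoli and germ cell RNA in the values of cluster 1 was not tested.

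Leydig RNA moved with cluster 2. The 5 Leydig rule genes took 0.153% of the summed UMIs of cluster 2, against 0.0286% in cluster 1 and 0.0326% in cluster 3. All 6 members with at least 0.25% Leydig genes lay in cluster 2, which also had the deepest barcodes, with a median of 3490.5 UMIs, and the lowest median stromal share, 0.826%. At resolution 1 a cluster of 15 barcodes held this RNA at 0.292% of its UMIs. The part of Leydig RNA in the values of cluster 2 was not tested.

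Leydig RNA and Clec3b also differed across the rule's limit. The 52 members with stromal shares of 0.5% to 0.75% had 0.142% Leydig genes and 111 CPM of Clec3b. The 132 barcodes just outside, at 0.25% to 0.5%, had 0.235% Leydig genes and 12.5 CPM of Clec3b. Hsd3b6 was at 716 CPM inside and 1189 CPM outside, whereas the 144 members at 1% or more had 95.5 CPM of Hsd3b6 and 889 CPM of Clec3b. The 48 members at 0.75% to 1% had 49.5 CPM of Hsd3b6, 297 CPM of Clec3b and 775 CPM of Pdgfra. Their Leydig genes took 0.0297% of UMIs, against 0.0344% at 1% or more. Among members, the raised Leydig RNA thus lay in those next to the limit. Pdgfra was at 447 CPM just inside and 222 CPM just outside, and Col3a1 at 1068 CPM and 1038 CPM. Penk was at 94.7 CPM just inside and 544 CPM at 1% or more, and Igf1 at 463 CPM and 1065 CPM. Members next to the limit thus had less Clec3b, Penk and Igf1 than members far from it, and Col3a1 differed little across it. How much the Leydig RNA near the limit had to do with these levels was not tested.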

How the data were processed

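Testis cells were profiled in 4 libraries, and counts of the day 35 knockout library were analysed. The authors deposited whole-number UMI counts per gene and barcode, not normalised; per the file headers, Cell Ranger 7.1.0 wrote them. STAR and the build mm10 are named in the submitters' processing notes. The cell-calling step is not described there.

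Barcodes were filtered and classed by the marker shares in the report, free RNA was not subtracted and doublets were kept. Scrublet (scanpy 1.11.5) marked 265 of 8121 barcodes (3.26%) and 3 of the 244 members. Counts were summed over a class. Ratios of CPM have exact conditional binomial 95% intervals, levels exact Poisson intervals and shares exact Clopper-Pearson intervals, all for counting error only. A gene needed 20 UMIs over both sets, and the 11 rule genes were left out. A count of 0 was set to 3 in a ratio and called only in the direction that this bounds. In list medians genes at 0 in members ranked lowest. For shares of barcodes with a UMI, each barcode was thinned to 1000 UMIs. Members were clustered by the Leiden method (igraph 0.11.9) on 1500 variable genes, 20 components and 15 neighbours. The code was tested on simulated data. Gene positions came from a GENCODE annotation of mm10, in which 438 of 438 described genes matched. Sums and intervals used pandas 2.3.3, scipy 1.17.1 and numpy 2.4.6 under Python 3.11.15.

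Members, the 20 gene lists (338 genes), markers and alternatives were chosen with earlier results of these data known. Named were the rule genes, Znhit1, the 12 genes of largest lower ratio bound to all other barcodes with at least 50 UMIs in members, 5 in each direction against myoid-like and Leydig-like barcodes, the extremes of each list and 5 genes per cluster. Other list genes were described after their values were seen, and a few that enter the list counts are not reported here by name.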

Additional observations from a re-analysis of the deposited data

How the results depend on the processing

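No paired analysis was possible because each group has 1 library. Of 8121 barcodes, 376 were members with a stromal limit of 0.25% and 144 with 1%, 153 with at most 5% mitochondrial UMIs, 162 with at least 2000 UMIs, and 194 without cluster 2. With at least 50 UMIs per gene, 575 and 344 genes were higher and lower than in Leydig-like barcodes, and 425 and 626 than in myoid-like barcodes. With a minimum of 1 UMI, 2250 were lower than in Leydig-like and 2637 higher than in myoid-like barcodes. Where the interval bound had to pass 2-fold, 950 and 1156 were higher and lower than in all other, 166 and 207 than in Leydig-like and 277 and 317 than in myoid-like barcodes. With at most 5% mitochondrial UMIs, 676 were lower than in myoid-like barcodes, and no Leydig-like barcode was left. Against barcodes of low germ cell gene counts 1051 were higher and 1883 lower. A Leydig limit of 1% gave 1227 lower genes and 0.5% gave 1309. Resolution 1 gave 7 clusters.

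Of the ratios of described genes, 2643 values stayed within the interval of the reported ratio, 491 moved outside it and 8 reversed from a 2-fold difference. Of ratios within 2-fold, 17 that moved and 26 that stayed within the interval crossed 1, among them Gas6 (0.526 to 1.53) to myoid-like barcodes and Tpm2 (0.571 to 1.42) and Timp3 (0.983 to 1.91) to all other barcodes with a stromal limit of 0.25%, and Aldh1a1 (1.15 to 0.408) against barcodes of low germ cell gene counts. The 8 were Cnn1 (1.02), Tnnt2 (1.9) and Ltbp2 (1.85) to all other barcodes with a stromal limit of 0.25%, Tnnt2 (1.35) with a myoid limit of 2%, Igfbp2 (0.999) to myoid-like barcodes with a stromal limit of 1%, and Pcolce (0.832), Gli3 (2.12) and Esr1 (0.865) against barcodes of low germ cell gene counts. The cause was not tested. List medians stayed within their interval for 582 values and moved for 18. The 0.5% Leydig limit, the fit without cluster 2 and the fit without members rich in Leydig genes were chosen after seeing the data.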

Other observations

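Single genes gave most of the endothelial and Schwann marker sums of members. Cdh5, the adhesion molecule VE-cadherin of endothelial cells, had UMIs in 53 of 244 members, at 99.0 CPM (76.4 to 126). It was at 2.96 CPM in myoid-like, 4.42 CPM in macrophage-like and 9.28 CPM in Leydig-gene barcodes. After thinning to 1000 UMIs, 18 of 244 members (7.38%, exact interval 4.43 to 11.4%) had a Cdh5 UMI, against 2 of 557 myoid-like and 3 of 433 macrophage-like barcodes. Pecam1, another endothelial gene, was seen in 3 members, 2 of which also had Cdh5, and Kdr was at 0. Of the 53 members with Cdh5, 50 had Dcn. The other endothelial markers were lower, with Flt1 at 21.3 CPM, 12.2 CPM for Pecam1 and 9.14 CPM for Egfl7. Cdh5 was spread over all 3 clusters, at 74.2, 108 and 132 CPM in clusters 1, 2 and 3, while all 7 endothelial markers summed to 84.3, 108 and 315 CPM, so that in cluster 3 other endothelial markers together exceeded it. S100b, a calcium-binding protein known from glia, was at 73.1 CPM (53.9 to 96.9) in members and 2.47 CPM in myoid-like barcodes, with Sox10 at 0. Both genes were named after their values were seen, and neither value was tested.

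Leading genes overlapped only in part among members. Clec3b and Penk, counted in 101 and 124 members, were found together in 62. Clec3b and Cyp26b1, counted in 101 and 141, were found together in 53. A missing UMI at a median depth of 2392 does not show that a gene is off.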
